A study of Mus musculus with 24 samples.

Results

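The comparison described here is that of kidney stromal cells from wild-type CD1 mouse embryos at E13.5 (embryonic day) with the same cells at E12.5, read across all genes. Its members are the 6 libraries that the labels call wild-type on a CD1 background, 3 at E13.5 and 3 at E12.5, out of 24 libraries in the series. Embryonic kidneys were dissociated with collagenase, cells carrying the FoxD1Cre-eGFP transgene were collected by fluorescence-activated sorting, and their RNA was sequenced on an Illumina HiSeq instrument. The other 18 libraries are groups of 3 at E13.5 and E12.5 of CD1 beta-catSO, C57BL/6 beta-catSD and C57BL/6 wild-type stroma, and those of CD1 beta-catSO and C57BL/6 wild-type are used below for contrast. The series text names FoxD1Cre-eGFP for every genotype, so the wild-type cells of both stages share the marker by which they were sorted. The series text speaks of 3 kidneys for a genotype and the labels do not tie a library to a kidney, an embryo or a litter. Each p below therefore measures the spread between libraries within groups, pooled over all 24 libraries, and this spread may be technical.

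Kidney stroma descends from progenitors that express the transcription factor Foxd1 and lie around the caps of nephron progenitors. As the ureteric bud branches, an outer cortical and an inner medullary stroma become distinct, and descendants of the Foxd1 cells include interstitial fibroblasts, pericytes, mesangial cells and vascular smooth muscle. The stroma also makes signals, such as retinoic acid, that act on the ureteric bud and on the nephron progenitors. The comparison addresses how the expression of this population differs over 1 day of normal development.

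Expression is given as log2 CPM, the usual depth-scaled read count on a log2 scale, after the authors' scaling of the library sizes. The E13.5 libraries held 15.99, 6.75 and 7.67 M reads in replicates 1, 2 and 3, and the E12.5 libraries held 9.57, 10.0 and 9.57 M. The defining marker Foxd1 was at 8.26, 8.92 and 8.84 log2 CPM at E13.5 and at 9.05, 8.82 and 8.81 at E12.5, and Pdgfrb, a receptor of the stromal and mural lineage, was at 8.13, 8.62 and 8.42 at E13.5 and at 8.49, 8.47 and 8.46 at E12.5. Both genes were therefore present in all 6 libraries, as the label says, and neither was called (log2 change -0.22, adjusted p = 0.434, and -0.08, adjusted p = 0.638, limma), and the sign of Pdgfrb turned without E13.5 replicate 1. Foxd1 names the transgene used for sorting, so its level is not independent of how the cells were chosen.

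The 3 E13.5 libraries differed among themselves more than the 3 E12.5 libraries did. Over the 11155 genes with a mean log2 CPM above 2, the median SD between replicates was 0.159 at E13.5 and 0.118 at E12.5, and the SD was larger at E13.5 for 63.4% of these genes. No pair of replicates differed by sampling noise alone. Marker lists of other cell types, none of which had a called member for endothelium, macrophages, ureteric bud, erythroid cells, liver or adrenal cortex, separated single libraries. The summed level of 14 endothelial genes was 1131, 117 and 69.5 CPM at E13.5 and 135, 484 and 479 CPM at E12.5, so E13.5 replicate 1 was the highest and the stages overlapped, and 7 of the 14 were called lower without that library. The 13 ureteric bud genes summed to 367, 58.4 and 66.0 CPM at E13.5 and to 53.3, 81.9 and 67.3 CPM at E12.5, and again E13.5 replicate 1 stood apart. The 10 liver genes summed to 29.5, 18.1 and 1058 CPM at E13.5 and to 313, 289 and 271 CPM at E12.5, with E13.5 replicate 3 the highest. The 8 erythroid genes summed to 4054, 1412 and 50.2 CPM at E13.5 and to 3219, 3331 and 3261 CPM at E12.5. The 14 macrophage genes did not overlap between stages in sum, at 447, 327 and 364 CPM at E13.5 and 813, 837 and 807 CPM at E12.5, and 10 of them were called lower when the 6 libraries were fitted alone. The sums of 3 shorter lists did not overlap either. The 10 cartilage and bone genes summed to 215, 190 and 173 CPM at E13.5 and to 232, 256 and 258 CPM at E12.5, the 4 body wall genes to 1217, 1689 and 2012 CPM at E13.5 and 1198, 1070 and 1115 CPM at E12.5, and 2 skeletal muscle genes to at most 2.76 CPM at E13.5 and at least 2.81 CPM at E12.5. Most of the body wall sum came from Aldh1a2, which is also on the cortical stroma list described below. The mean level of the body wall list overlapped between stages. It was 6.42, 5.05 and 4.73 log2 CPM at E13.5 and 4.08, 5.28 and 5.36 at E12.5. Steroid-making genes of the adrenal cortex were read in E13.5 replicates 1 and 3 and hardly elsewhere, with 215, 0 and 108 reads of Cyp11a1 at E13.5 and 0, 2 and 0 reads at E12.5.

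**Figure D1:**
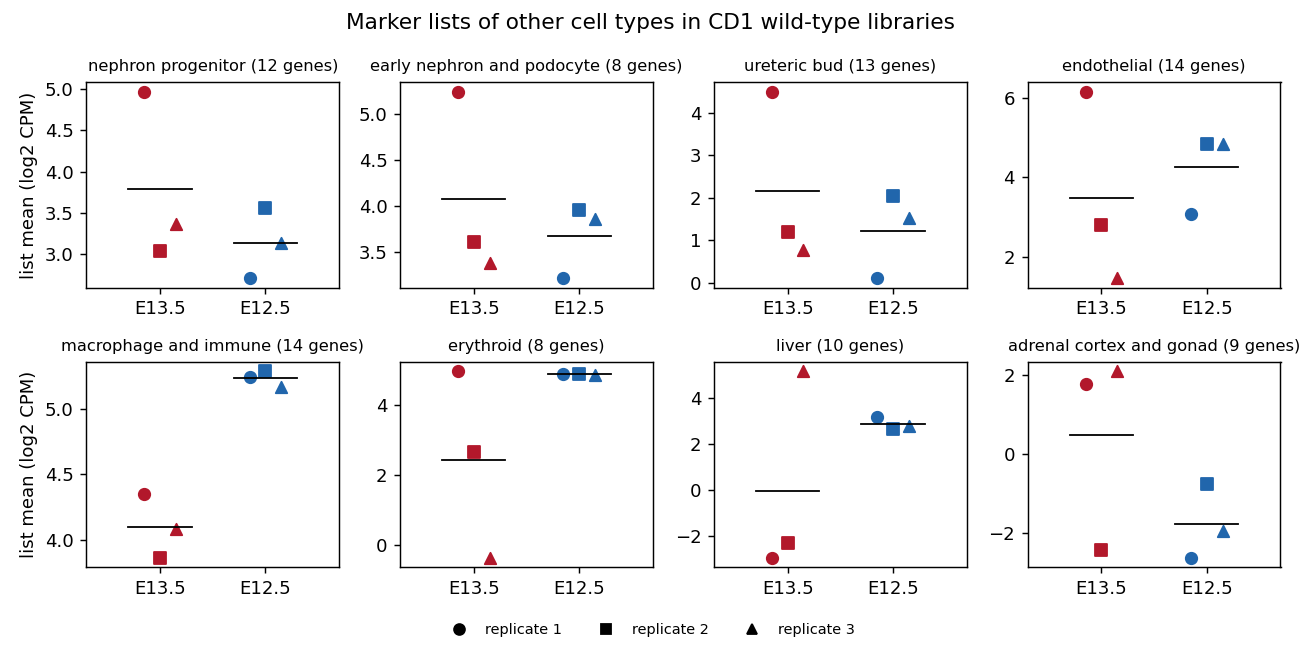
Mean log2 CPM of 8 marker lists of cell types other than stroma in the 3 E13.5 and 3 E12.5 CD1 wild-type libraries (symbols, replicates; black lines, group means). E13.5 replicate 1 is highest for nephron progenitor, early nephron, ureteric bud and endothelial genes, E13.5 replicate 3 is highest for liver and lowest for erythroid genes, and the macrophage list is lower in every E13.5 library than in every E12.5 library.

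Of 13803 genes tested, 748 (5.42%) were called between E13.5 and E12.5 with limma at a Benjamini-Hochberg adjusted p under 0.05, which is the meaning of called, rose and fell throughout. There were 334 genes higher at E13.5 (2.42%) and 414 lower (3.00%), and the median change over all genes was 0.0048 on the log2 scale. At least a 2-fold difference was seen for 66 of the higher genes (0.478%) and 122 of the lower ones (0.884%), so larger differences ran more often toward lower expression at E13.5. The 3 libraries of 1 stage all lay beyond the 3 of the other for 3442 genes (24.9%), and 727 of the 748 called genes were among them. The count of called genes was 290 without E13.5 replicate 3, 785 without E13.5 replicate 1 and 683 without E13.5 replicate 2, and it was 388, 398 and 350 without E12.5 replicates 1, 2 and 3. Every one of the 748 genes kept its direction in each of these fits. For the 727 genes without overlap this had to be so, because leaving out 1 library cannot turn their difference. Of the 748 genes, 193 were called in all 6 fits, 61 higher and 132 lower. With the mean levels of the endothelial, macrophage and ureteric bud lists as covariates, an alternative chosen after seeing the data, 347 genes were called, of which 291 were among the 748. The macrophage mean was 4.35, 3.87 and 4.08 log2 CPM at E13.5 and 5.24, 5.29 and 5.16 at E12.5, so this covariate went with stage. A call lost with the covariates, here and below, therefore cannot tell other cells from stage.

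The genes with the largest rises are a mixed group of secreted, matrix and membrane proteins. Tmtc1, an endoplasmic reticulum protein, was at 5.29, 6.00 and 6.34 log2 CPM at E13.5 and at 2.94, 4.16 and 3.71 at E12.5 (log2 change 2.27 ± 0.34 SE, adjusted p = 0.000398, limma, n = 3 each). The aldo-keto reductase gene Akr1b7 was at 3.52, 3.28 and 3.76 at E13.5 and at 1.76, 1.59 and 0.58 at E12.5 (2.21 ± 0.34, adjusted p = 0.000526). In both genes all E13.5 libraries lay above all E12.5 libraries, and both calls held without each library in turn. Itga3, the laminin-binding integrin alpha 3, was at 5.24, 4.61 and 5.30 at E13.5 and at 2.84, 3.35 and 3.22 at E12.5 (1.92 ± 0.33, adjusted p = 0.00159). The 3 genes lie at chr6:148232430-148444389, chr6:34412334-34423142 and chr11:95044474-95076801 of GRCm38, in the order given. Itga3, too, was apart in all 6 libraries and called in every fit that left out 1 library, as were Cacna2d3, an auxiliary calcium channel subunit (1.95), Loxl4, a lysyl oxidase that crosslinks collagen and elastin (1.64), the cation channel gene Trpm5 (1.59) and the semaphorin Sema3d (1.59). Tmtc1, Akr1b7, Cacna2d3, Trpm5 and Sema3d overlap genes on the other strand, and the strand of counting is not given in the sources used here.

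Igfbp6, which binds insulin-like growth factors and prefers IGF2, had the largest rise among the named genes. It was at 3.27, 3.19 and 4.93 log2 CPM at E13.5 and at 0.87, 0.94 and -0.19 at E12.5 (3.26 ± 0.87, adjusted p = 0.0306, limma), which is 455 reads over the E13.5 libraries and 44 over the E12.5 libraries. Npy2r, a receptor for neuropeptide Y, had 92, 35 and 56 reads at E13.5 and 8, 24 and 1 at E12.5 (3.12 ± 0.85, adjusted p = 0.0343). The aldehyde oxidase gene Aox3 (2.90), the secreted protein gene C1qtnf3 (2.01), Reln, which encodes the large extracellular signal reelin (1.83), the matricellular gene Smoc2 (1.67) and Proser2 (1.66) are also among the 15 largest rises. For these 7 genes the 3 E13.5 libraries all lay above the 3 E12.5 libraries, but their calls were less firm. Without E13.5 replicate 3 none of the 7 was called, with adjusted p up to 0.149 for Igfbp6, 0.197 for Npy2r, 0.0778 for Aox3, 0.0612 for C1qtnf3, 0.137 for Reln, 0.0801 for Smoc2 and 0.279 for Proser2 over the fits that left out 1 library. The calls of Igfbp6, Reln and Proser2 were also lost without any 1 of the E12.5 replicates, those of Npy2r, Aox3 and C1qtnf3 without E12.5 replicate 3, that of Npy2r without E12.5 replicate 1, those of Npy2r and Proser2 without E13.5 replicate 1 and those of Npy2r and Reln without E13.5 replicate 2. Their log2 changes without 1 library ran from 2.69 to 3.56 for Igfbp6, from 2.03 to 4.02 for Npy2r and from 1.05 to 2.25 for Proser2.

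**Figure D2:**
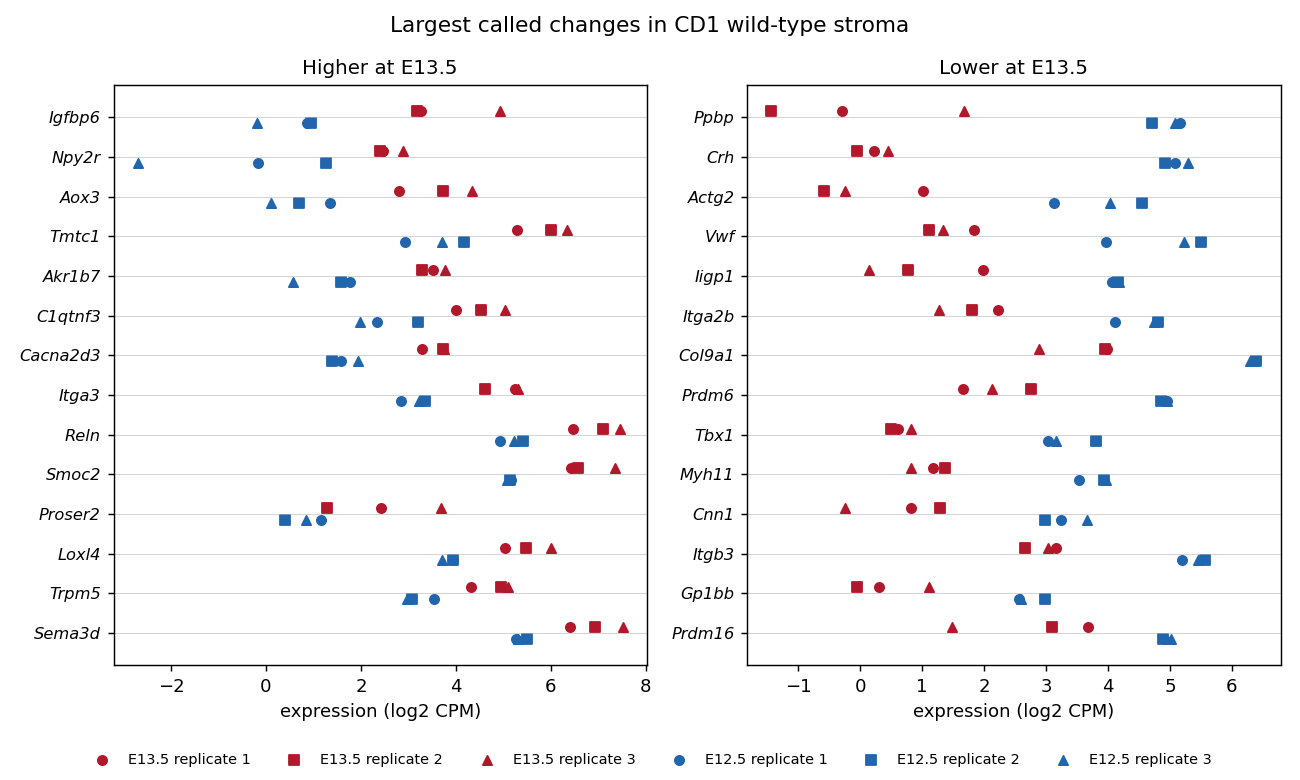
Expression in log2 CPM of 14 of the 15 genes with the largest rises (left) and 14 of the 15 with the largest falls (right) among called genes with a mean log2 CPM above 1 and libraries that do not overlap between stages. Red symbols are the 3 E13.5 libraries and blue symbols the 3 E12.5 libraries. The gap between the stages is wider among the falls, between -2.18 and -5.004 on the log2 scale, than among the rises, between 1.59 and 3.26.

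The largest falls include genes of smooth muscle, of platelets and of mesenchymal patterning. Crh, which encodes corticotropin-releasing hormone, was at 0.23, -0.06 and 0.45 log2 CPM at E13.5 and at 5.08, 4.93 and 5.30 at E12.5 (-4.90 ± 1.02, adjusted p = 0.00691, limma), or 35 reads against 1015 (chr3:19693401-19695396, GRCm38). Its 3 E12.5 libraries agreed closely and lay far above all E13.5 libraries. Prdm6, a transcriptional repressor known for its role in vascular smooth muscle, was at 1.66, 2.75 and 2.12 at E13.5 and at 4.95, 4.86 and 4.95 at E12.5 (-2.74 ± 0.31, adjusted p = 4.52e-05). Tbx1, a T-box factor known from the pharyngeal region, was at 0.62, 0.49 and 0.81 at E13.5 and at 3.03, 3.81 and 3.15 at E12.5 (-2.69 ± 0.38, adjusted p = 0.000242). Col9a1, a chain of the cartilage collagen type IX, was at 3.98, 3.95 and 2.88 at E13.5 and at 6.39, 6.39 and 6.29 at E12.5 (-2.76 ± 0.37, adjusted p = 0.000204), and it was the 1 called gene of 10 measured cartilage and bone genes, of which 4 were lower without E13.5 replicate 1. The calls of these 4 genes held without each library in turn. Prdm16, a zinc finger factor, fell by 2.18, but its call was lost without E13.5 replicate 3 or any 1 of the E12.5 replicates, with changes from -2.65 to -1.55.

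Falls of the same size were measured for genes that are known from platelets and their precursors. Ppbp, the platelet chemokine CXCL7, was at -0.30, -1.43 and 1.67 log2 CPM at E13.5 and at 5.16, 4.70 and 5.08 at E12.5 (-5.004 ± 1.01, adjusted p = 0.00536, limma), or 39 reads against 936. Itga2b and Itgb3, which together form the platelet fibrinogen receptor, fell by 2.80 ± 0.52 (adjusted p = 0.00298) and by 2.46 ± 0.41 (adjusted p = 0.0011). Itgb3 was at 3.16, 2.65 and 3.02 at E13.5 and at 5.20, 5.56 and 5.46 at E12.5, with no overlap. Vwf, von Willebrand factor of endothelium and megakaryocytes, fell by 3.47 ± 0.71 (adjusted p = 0.00601), and Gp1bb, a subunit of its platelet receptor, fell by 2.26 ± 0.44 (adjusted p = 0.00391). The interferon-inducible GTPase gene Iigp1 fell by 3.16 ± 0.59 (adjusted p = 0.00309). The calls held without each library in turn, and those of Ppbp, Itga2b, Vwf and Gp1bb were lost with endothelial, macrophage and ureteric bud list means as covariates. The Gp1bb locus overlaps another gene on the same strand, so reads of the pair may not be separable.

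Among genes of the smooth muscle contractile apparatus the called changes were all falls. Of 12 measured genes 6 fell and 0 rose, against 3.00% and 2.42% of all genes, and the list's median change was -0.87, beside 0.0048 over all genes. Actg2, the gamma actin of visceral muscle, was at 1.01, -0.59 and -0.24 log2 CPM at E13.5 and at 3.12, 4.55 and 4.03 at E12.5 (-3.84 ± 0.83, adjusted p = 0.00832, limma), or 43 reads against 478. Myh11, the smooth muscle myosin heavy chain, was at 1.17, 1.37 and 0.81 at E13.5 and at 3.53, 3.94 and 3.97 at E12.5 (-2.69 ± 0.47, adjusted p = 0.0017). Both genes were apart in all libraries, and E12.5 replicate 1 was the lowest of its group in each. Cnn1, the actin-binding calponin, was at 0.83, 1.29 and -0.24 at E13.5 and at 3.24, 2.99 and 3.67 at E12.5 (-2.67 ± 0.57, adjusted p = 0.00801). Tagln, the actin-associated protein SM22, was at 4.48, 5.18 and 4.36 at E13.5 and at 6.09, 6.29 and 6.42 at E12.5 (-1.60 ± 0.30, adjusted p = 0.00373). Acta2, the alpha actin of vascular smooth muscle, was at 5.69, 6.42 and 5.54 at E13.5 and at 6.78, 7.19 and 7.04 at E12.5 (-1.12 ± 0.27, adjusted p = 0.0179). The intermediate filament gene Des, at 5.93, 5.27 and 5.08 at E13.5 and at 6.18, 5.93 and 6.06 at E12.5, had the smallest of the 6 falls (-0.62 ± 0.18, adjusted p = 0.0412), and its stages overlapped, since E13.5 replicate 1 lay among the E12.5 libraries. The 6 genes that were not called include the tropomyosin genes Tpm1 (-0.25) and Tpm2 (0.22). In bulk samples, fewer cells of a type and less RNA for each cell cannot be told apart.

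The contractile count was 3 of 12 without E13.5 replicate 3, and 4, 5 or 6 without any other 1 library. Without E13.5 replicate 3 the calls of Cnn1 (-2.24, adjusted p = 0.0572), Acta2 and Des were lost, that of Acta2 was also lost without E13.5 replicate 1 or without E12.5 replicate 2 or 3 (-1.39 to -0.95), and that of Des without E13.5 replicate 2 or any 1 of the E12.5 replicates (-0.88 to -0.45). The Tagln and Des loci overlap genes on the other strand. With the cell type covariates 4 of the 12 genes were called, and Cnn1 and Acta2 were not. Of the lists used as covariates, the endothelial list overlapped between stages and the macrophage list did not. Whether cell make-up had a part in the falls was not tested.

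Because 6 of these genes fell, the promoters of the list were read from RefSeq windows of 300 bases (GRCm38.p6, from 250 bases before the transcription start to 50 after it) for the CArG box, the site of serum response factor. The box was searched in its strict form and with 1 other base allowed in its middle, a form that reads as itself on both strands. The promoters of Acta2 and Cnn1 are shown, 5′ to 3′ on the strand of the gene, because they are 2 fallen genes that differ in this feature, with the relaxed CArG boxes in capitals.
Acta2, chr19:34255324-34255623, minus strand: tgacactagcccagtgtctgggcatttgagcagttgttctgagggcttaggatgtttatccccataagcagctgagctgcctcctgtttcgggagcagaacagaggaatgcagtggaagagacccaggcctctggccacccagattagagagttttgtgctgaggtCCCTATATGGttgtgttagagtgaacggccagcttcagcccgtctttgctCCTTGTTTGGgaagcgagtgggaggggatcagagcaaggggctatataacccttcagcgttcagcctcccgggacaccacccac
Cnn1, chr9:22099003-22099302, plus strand: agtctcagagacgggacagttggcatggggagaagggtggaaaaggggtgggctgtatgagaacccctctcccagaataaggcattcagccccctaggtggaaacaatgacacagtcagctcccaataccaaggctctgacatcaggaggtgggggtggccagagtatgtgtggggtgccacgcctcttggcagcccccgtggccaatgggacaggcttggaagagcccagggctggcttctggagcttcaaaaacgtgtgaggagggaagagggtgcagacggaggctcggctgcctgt
The Acta2 window holds 2 relaxed boxes, which begin at -84 and -34 from the start, and the Cnn1 window holds none. Of the 8 contractile genes in the promoter table, 2 (Acta2 and Myl9) held a relaxed box and 1 (Myl9) a strict one, against 11.3% and 1.81% of 27025 genes. Of these 2 genes Acta2 fell, and Myl9 was not called (-0.18, adjusted p = 0.544, limma). A match describes these letters and is not evidence of binding.

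**Figure D3:**
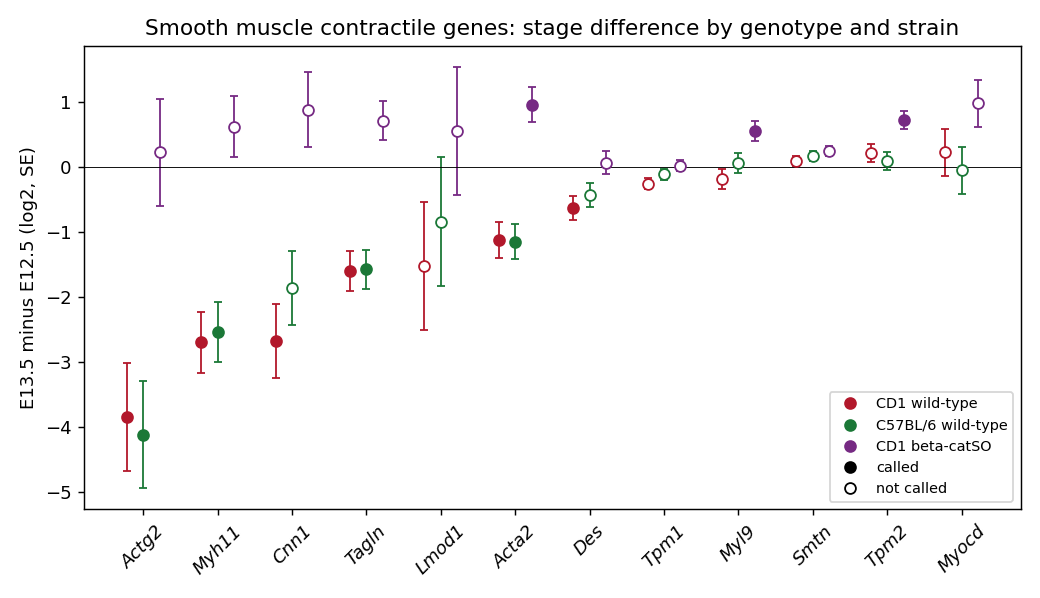
Difference between E13.5 and E12.5 (log2, with SE) of the 12 smooth muscle contractile genes in CD1 wild-type, C57BL/6 wild-type and CD1 beta-catSO stroma, 3 libraries for each stage in each. Filled symbols were called. Actg2, Myh11, Cnn1, Tagln and Acta2 fell in CD1 wild-type stroma, lie below 0 in C57BL/6 wild-type stroma too, where Cnn1 was not called, and lie above 0 in beta-catSO stroma, where Acta2 alone of the 5 was called.

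Genes of the cortical and progenitor stroma rose more often than they fell. Of 17 measured genes 5 rose and 1 fell, against 2.42% and 3.00% of all genes, with a median change of 0.27. Smoc2 was at 6.43, 6.57 and 7.35 log2 CPM at E13.5 and at 5.15, 5.13 and 5.07 at E12.5 (1.67 ± 0.38, adjusted p = 0.0122, limma). Ntn1, the guidance protein netrin-1, was at 9.07, 9.74 and 10.03 at E13.5 and at 8.72, 8.68 and 8.74 at E12.5 (0.90 ± 0.20, adjusted p = 0.0106). Gdnf, the growth factor that drives branching of the ureteric bud, was at 6.76, 7.51 and 7.75 at E13.5 and at 6.56, 6.32 and 6.48 at E12.5 (0.89 ± 0.21, adjusted p = 0.0171). In Ntn1 and Gdnf all E13.5 libraries were higher, with replicate 1 the lowest of them. Aldh1a2, the enzyme that makes retinoic acid, was at 9.91, 10.55 and 10.85 at E13.5 and at 9.92, 9.73 and 9.80 at E12.5 (0.62 ± 0.17, adjusted p = 0.0302), so E13.5 replicate 1 lay among the E12.5 libraries. Ecm1, a secreted matrix protein, rose by 0.47. The homeobox gene Meis1 fell by 0.52 ± 0.13 (adjusted p = 0.0243), with E13.5 replicate 1 the lowest of all at 7.76.

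The calls of risen genes in the cortical list were fewer without several single libraries. Over all genes, those called higher numbered 107 without E13.5 replicate 3 and 368 without E13.5 replicate 1, against 334 with every library. Without E13.5 replicate 3 the number of risen genes was 0 of 17, it was 2 without E13.5 replicate 2 or without E12.5 replicate 2 or 3, and it was 3 without E12.5 replicate 1. Over the fits without 1 library the lowest change was 1.38 for Smoc2, 0.69 for Ntn1, 0.68 for Gdnf, 0.42 for Aldh1a2 and 0.38 for Ecm1, and the calls of Aldh1a2 and Ecm1 were lost without any library but E13.5 replicate 1. The Meis1 call was lost without E13.5 replicate 1, where the change was -0.28, and without any 1 of the E12.5 replicates. Of the markers named regardless of their values, Tcf21, a factor of capsular and stromal cells, was at 6.47, 6.43 and 6.29 at E13.5 and at 7.02, 6.87 and 6.90 at E12.5 and was not called (-0.53 ± 0.20, adjusted p = 0.132). Pdgfra, a receptor of interstitial fibroblasts, differed by 0.08 ± 0.14 (adjusted p = 0.80), with its sign turned without E13.5 replicate 3 (-0.13) and a call without E13.5 replicate 1 (0.36, adjusted p = 0.0182, limma).

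The called genes of the medullary stroma and of the mesenchyme around the ureter all fell. Of 11 medullary genes 3 fell and 0 rose, against 3.00% and 2.42% of all genes, with a median of -0.27. Prrx1, a homeobox gene of embryonic mesenchyme, was at 6.60, 7.22 and 6.37 log2 CPM at E13.5 and at 7.86, 7.84 and 7.85 at E12.5 (-1.12 ± 0.17, adjusted p = 0.00036, limma). Zeb2 and Snai2, repressors of epithelial genes in mesenchyme, fell by 0.56 ± 0.10 (adjusted p = 0.00296) and by 0.48 ± 0.12 (adjusted p = 0.0169). Of 10 genes of the T-box mesenchyme 2 fell and 0 rose, with a median of -0.30. Tbx18, which marks the progenitors of ureteral smooth muscle, was at 4.91, 5.30 and 4.80 at E13.5 and at 6.10, 6.00 and 6.11 at E12.5 (-1.07 ± 0.16, adjusted p = 0.000398). Bmp4, a ligand made by the same mesenchyme, was at 4.64, 4.64 and 4.10 at E13.5 and at 5.34, 5.30 and 5.59 at E12.5 (-0.95 ± 0.20, adjusted p = 0.0084). All 5 of these genes were apart between stages. Other members lay higher at E13.5 without being called. Penk, which encodes the opioid precursor proenkephalin and is on the medullary list, was at 3.75, 2.87 and 4.18 at E13.5 and at 1.80, 1.49 and 2.61 at E12.5 (1.63 ± 0.62, adjusted p = 0.129), with no overlap, and it was called higher in C57BL/6 wild-type stroma (2.46, adjusted p = 0.0282). Ptch1, the Hedgehog receptor gene, which is on the T-box list, was at 6.50, 6.78 and 7.13 at E13.5 and at 6.09, 6.28 and 6.25 at E12.5 (0.59 ± 0.20, adjusted p = 0.084), also with no overlap, and was called without E13.5 replicate 1 (0.74, adjusted p = 0.0417). Both were called when only the 12 wild-type libraries were fitted. The calls of Prrx1, Zeb2 and Tbx18 held without each library in turn, that of Bmp4 was lost without E13.5 replicate 3 (-0.77, adjusted p = 0.0627), and that of Snai2 without E13.5 replicate 1 or 3 or E12.5 replicate 1 (-0.65 to -0.36).

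The called changes of pericyte and general mesenchymal genes were small falls, beside 3.00% of all genes that fell and 2.42% that rose. Notch3, a receptor of mural cells, and Rgs5, a pericyte regulator of G protein signals, were the 2 called of 11 pericyte genes and fell by 0.43 ± 0.10 (adjusted p = 0.0114, limma) and by 0.62 ± 0.15 (adjusted p = 0.0185). The libraries of Rgs5 overlapped, with E13.5 replicate 1 at 5.48 and E12.5 replicate 1 at 5.37. The pericyte median was -0.08. In C57BL/6 wild-type stroma 3 of the 11 pericyte genes rose and 0 fell, with a median of 0.35. Rgs5 was at 0.28 there and was not called (adjusted p = 0.333, limma). The test of the difference between strains called 0 of the 11, with an adjusted p of 0.640 for Rgs5. Among 13 general mesenchymal genes, the factor gene Twist1 fell by 0.69 ± 0.16 (adjusted p = 0.0114) and the collagen gene Col1a2 by 0.47 ± 0.13 (adjusted p = 0.0406), and 0 rose. All 4 calls were lost without at least 1 library. For Twist1 these were E13.5 replicate 1 and E12.5 replicate 1 (-0.82 to -0.50), for Notch3 E13.5 replicate 1 and E12.5 replicate 2 (-0.50 to -0.34), for Rgs5 each of replicates 2 and 3 of both stages (-0.83 to -0.48), and for Col1a2 every library but E13.5 replicate 2 (-0.63 to -0.36).

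The matrix lists did not move as a whole. Of 20 collagens outside cartilage 3 fell (Col23a1, Col26a1 and Col1a2) and 0 rose, against 3.00% and 2.42% of all genes. Without E13.5 replicate 3 only Col26a1 of the 3 was called. Of 26 matrix glycoproteins and proteoglycans 1 rose, Prelp, and 3 fell, Vcan, Thbs1 and Fbn2. Without E13.5 replicate 3 or E12.5 replicate 2 or 3 none of the 26 was called. In C57BL/6 wild-type stroma 7 of the 26 rose and 0 fell, with a median of 0.30, beside -0.10 in CD1. The test of the difference between strains called 0 of them. Vcan, the proteoglycan versican of embryonic mesenchyme, was at 8.84, 8.71 and 8.67 log2 CPM at E13.5 and at 9.15, 9.25 and 9.26 at E12.5 (-0.48 ± 0.12, adjusted p = 0.0225, limma). Of 21 matrix enzymes, Loxl4 and the aggrecan-cleaving protease Adamts5 (1.16 ± 0.28, adjusted p = 0.0156) rose, and the versican-cleaving protease Adamts1 (-0.71 ± 0.14, adjusted p = 0.00391) and the gelatinase Mmp2 (-0.40 ± 0.10, adjusted p = 0.0178) fell. Adamts1 was at 7.27, 7.89 and 7.43 at E13.5 and at 8.24, 8.20 and 8.28 at E12.5, with no overlap, and was called without each library in turn. The calls of Vcan (-0.53 to -0.44), Adamts5 and Mmp2 (-0.49 to -0.25) were each lost without E12.5 replicate 3 and at least 2 other libraries, E13.5 replicate 3 for Vcan and Adamts5 and E13.5 replicate 1 for Mmp2 among them.

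Genes of DNA replication, mitosis and ribosome building were slightly higher at E13.5. Their counts stand beside 2.42% of all genes that rose and 3.00% that fell. Of 20 replication genes 5 rose and 0 fell (median 0.21), of 20 mitosis genes 3 rose and 0 fell (median 0.24), and of 16 genes of ribosome biogenesis 5 rose and 0 fell (median 0.22). Cdt1, which licenses origins of replication, was at 6.47, 6.44 and 6.33 log2 CPM at E13.5 and at 5.96, 6.03 and 6.03 at E12.5 (0.40 ± 0.09, adjusted p = 0.00791, limma). Ccna2, the cyclin of S and G2 phases, was at 7.94, 8.02 and 8.15 at E13.5 and at 7.69, 7.57 and 7.71 at E12.5 (0.38 ± 0.08, adjusted p = 0.00801). Ncl, the nucleolar protein nucleolin, was at 10.36, 10.23 and 10.28 at E13.5 and at 9.98, 9.98 and 9.95 at E12.5 (0.32 ± 0.06, adjusted p = 0.00403). The 3 genes were apart between stages, although each change is well under 2-fold. Cdc20, the activator of the anaphase-promoting complex, rose by 0.34 ± 0.09 (adjusted p = 0.0206), and Wdr43, a factor of the small ribosomal subunit, rose by 0.45 ± 0.09 (adjusted p = 0.00382). Ccnd1, cyclin D1 of the G1 phase, was at 8.70, 8.15 and 8.40 at E13.5 and at 7.67, 7.68 and 7.69 at E12.5 (0.74 ± 0.15, adjusted p = 0.00561). It was the 1 called of the D cyclin, Myc and CDK inhibitor genes. The other risen genes of the 3 lists were Gins2, Ccne1, Tyms, Rrm2, Aurkb, Nop58, Npm1 and Dkc1, of which Ccne1, a cyclin of the G1 to S step, rose most, by 0.49 ± 0.12 (adjusted p = 0.0185). The proliferation marker Mki67 was not called (0.18 ± 0.11, adjusted p = 0.358). Of 29 cytosolic ribosomal proteins 1 rose, and of 20 nuclear genes of oxidative phosphorylation 0 were called.

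These counts moved with the libraries and with the covariates. Risen replication, mitosis and ribosome biogenesis genes numbered 2, 1 and 2 without E13.5 replicate 3, and 1, 1 and 2 without E12.5 replicate 3. Without E12.5 replicate 2 there were 1 replication and 3 ribosome biogenesis genes, without E13.5 replicate 2 there were 3 replication genes, and without E13.5 replicate 1 there were 2 ribosome biogenesis genes. With the cell type covariates the 3 numbers were 2, 0 and 0. Cdt1, Ncl, Wdr43 and Ccnd1 were called without each library in turn, the call of Ccna2 was lost without E13.5 replicate 3 (adjusted p = 0.0563), and that of Cdc20 was lost without E13.5 replicate 1 or E12.5 replicate 1 or 3 (0.31 to 0.37). Ccna2, Cdc20, Gins2, Ccnd1, Dkc1, Wdr43 and Mki67 overlap genes on the other strand. Tyms, Npm1, Rrm2 and Mki67 have near-identical copies elsewhere in the genome.

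The promoters of Cdt1 and Cdc20 are shown because they hold, in capitals, the short sites by which genes of these phases are commonly recognised, TTTGGCGC of E2F factors and TTTGAA of the cell cycle homology region (RefSeq, GRCm38.p6, both strands searched).
Cdt1, chr8:122567765-122568064, plus strand: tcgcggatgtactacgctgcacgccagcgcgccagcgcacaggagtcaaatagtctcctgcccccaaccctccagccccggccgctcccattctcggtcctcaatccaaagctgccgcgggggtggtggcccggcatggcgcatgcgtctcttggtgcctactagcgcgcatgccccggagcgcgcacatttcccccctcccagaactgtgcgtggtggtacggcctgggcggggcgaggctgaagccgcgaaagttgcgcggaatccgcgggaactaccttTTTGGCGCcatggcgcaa
Cdc20, chr4:118437294-118437593, minus strand: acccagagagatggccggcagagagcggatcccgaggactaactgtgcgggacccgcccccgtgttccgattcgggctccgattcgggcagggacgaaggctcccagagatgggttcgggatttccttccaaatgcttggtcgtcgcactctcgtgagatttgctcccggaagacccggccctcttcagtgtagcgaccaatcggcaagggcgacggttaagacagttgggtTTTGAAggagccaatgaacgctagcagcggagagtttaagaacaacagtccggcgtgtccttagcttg
TTTGGCGC stood in the windows of 5 of 17 replication genes in the table and in 0.585% of 27025 genes, and TTTGAA stood in those of 11 of 16 mitosis genes and in 20.2% of all. The shares describe the lists and were not tested, and not every gene that held a site was called.

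**Figure D4:**
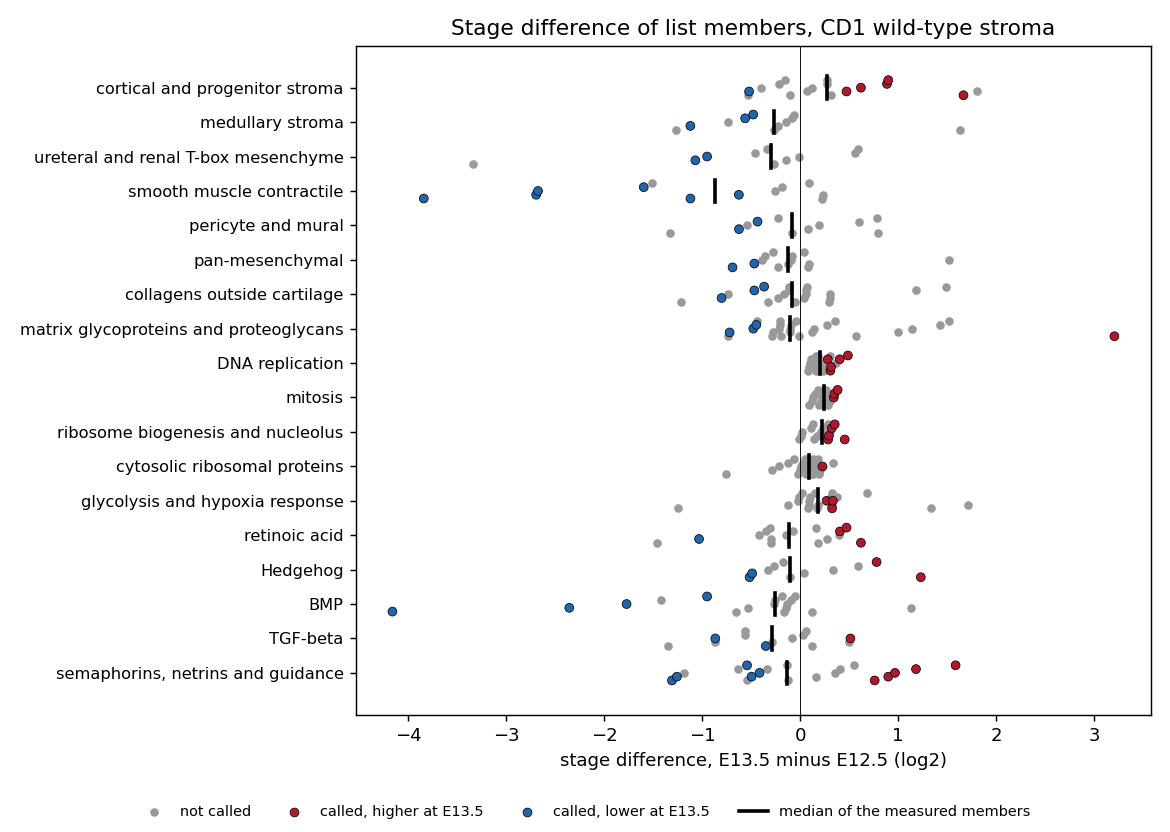
Difference between E13.5 and E12.5 (log2) of each measured member of 18 gene lists in CD1 wild-type stroma, with called members in colour and black lines at the list medians. The contractile list has the lowest median of the 18, at -0.87, and the 20 replication and 20 mitosis genes all lie above 0.

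Among signalling pathways, the BMP list held 4 falls and 0 rises in 17 genes, with a median of -0.26, and 13 genes were not called. Over all genes 3.00% fell and 2.42% rose. Bmp5, a ligand, was at 3.22, 3.42 and 2.85 log2 CPM at E13.5 and at 5.07, 4.81 and 4.93 at E12.5 (-1.77 ± 0.21, adjusted p = 5.35e-05, limma). Grem1, a secreted antagonist that holds BMP ligands away from their receptors, had 3, 0 and 0 reads at E13.5 and 16, 24 and 13 at E12.5, a ratio of depth-scaled reads of 0.0536 (95% counting interval 0.0107 to 0.166). Bmp4 fell as well. The Bmp5 and Grem1 calls held without each library in turn. The list held 2 falls without E13.5 replicate 3, with voom precision weights, or with a higher filter on low genes.

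Hedgehog and retinoic acid genes held both rises and falls. Of 11 Hedgehog genes 2 rose and 2 fell, against 2.42% and 3.00% of all genes. The transcription factor gene Gli1, a target of the pathway, was among the rises, and the falls were those of Gli3, whose product can repress the pathway, and of the co-receptor gene Gas1. Gli1 rose by 0.78 ± 0.21 (adjusted p = 0.0323, limma), Gli3 fell by 0.52 ± 0.12 (adjusted p = 0.0116) and Gas1 fell by 0.49 ± 0.11 (adjusted p = 0.0131). The Gli1 call was lost without any library but E13.5 replicate 1 (0.63 to 1.01), that of Gli3 without E12.5 replicate 1 (-0.58 to -0.42 over the 6 fits) and that of Gas1 without E12.5 replicate 1 or E13.5 replicate 3 (-0.59 to -0.41). Of 16 retinoic acid genes 3 rose and 1 fell. Crabp1, which binds retinoic acid in the cytoplasm, was at 7.91, 8.43 and 8.33 log2 CPM at E13.5 and at 9.33, 9.24 and 9.20 at E12.5 (-1.03 ± 0.14, adjusted p = 0.000212), a call that held without each library. Aldh1a2 and Ecm1, described above, were among the risen genes. The list held 0 rises without replicate 3 of either stage and 1 without any 1 of E12.5 replicates 1 and 2 and E13.5 replicate 2.

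Guidance and chemokine genes moved both ways. Of 20 semaphorin, netrin and guidance genes 5 rose and 5 fell, against 2.42% and 3.00% of all genes. The semaphorin Sema3a was at 5.60, 5.86 and 6.34 log2 CPM at E13.5 and at 4.84, 4.69 and 4.73 at E12.5 (1.18 ± 0.20, adjusted p = 0.00166, limma), and Sema3d, Sema3c, Ntn1 and the receptor gene Robo2 (0.76 ± 0.14, adjusted p = 0.00343) rose with it. The falls were all of receptors, Nrp2 (-1.26), Plxna4 (-1.31), Plxna2 (-0.54), Robo1 (-0.50) and Unc5c (-0.41). Cxcl12, a chemokine that guides endothelial and blood-forming cells, was at 9.19, 9.95 and 9.60 at E13.5 and at 10.55, 10.48 and 10.46 at E12.5 (-0.91 ± 0.14, adjusted p = 0.000435), while its scavenger receptor gene Ackr3 rose by 0.91 ± 0.20 (adjusted p = 0.0105). Vegfc, a growth factor of lymphatic vessels, was at 4.14, 3.32 and 2.88 at E13.5 and at 4.72, 4.69 and 4.84 at E12.5 (-1.31 ± 0.27, adjusted p = 0.00593). Sema3a, Sema3d, Robo2 and Cxcl12 were called without each library in turn. Without E13.5 replicate 3 the guidance list held 3 rises and 0 falls, and Sema3c (adjusted p = 0.0587), Vegfc (adjusted p = 0.0517) and Ackr3 were not called. The falls of the list numbered 1, 1 and 0 without E12.5 replicates 1, 2 and 3 and 3 without E13.5 replicate 1, and the Ackr3 call was lost also without E12.5 replicate 1 (0.75 to 1.02).

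Other lists of ligands and receptors held called members too, beside 2.42% of all genes that rose and 3.00% that fell. Tgfb2 was at 6.68, 7.07 and 6.64 log2 CPM at E13.5 and at 7.67, 7.65 and 7.67 at E12.5 (-0.87 ± 0.13, adjusted p = 0.000349, limma), a call that held without each library, while Tgfb3 rose by 0.51 and the receptor gene Tgfbr1 fell by 0.35. The angiotensin receptor gene Agtr2 rose by 1.05 ± 0.23 (adjusted p = 0.0106) and the natriuretic peptide clearance receptor gene Npr3 by 1.03 ± 0.25 (adjusted p = 0.0175), the 2 called of 13 prostaglandin and vasoactive genes. Agtr2 was at 6.49, 6.19 and 6.57 at E13.5 and at 5.17, 5.40 and 5.53 at E12.5. Of 10 IGF and binding protein genes, Igfbp6 and Igfbp5 (0.94 ± 0.24, adjusted p = 0.0248) rose and Igfbp2 (-0.57 ± 0.13, adjusted p = 0.00962) and Igfbp4 fell. Igf2 itself was not called (-0.21 ± 0.08, adjusted p = 0.13), nor was H19, the noncoding RNA of the same imprinted domain (-0.17 ± 0.09, adjusted p = 0.267). Both differences were 0 with quantile normalization, which gives equal values to equal ranks and so does not measure their size. Ctnnb1, beta-catenin, was slightly lower at E13.5 (-0.23 ± 0.06, adjusted p = 0.0354), and its target Axin2 was not called (0.32 ± 0.15, adjusted p = 0.246). The Ctnnb1 call was lost without any library but E13.5 replicate 2 and with median centring or quantile normalization. Without E13.5 replicate 3 the calls of Tgfb3, Tgfbr1, Agtr2 (adjusted p = 0.0562), Npr3, Igfbp2 (adjusted p = 0.0689), Igfbp4 and Igfbp5 were also lost, those of Tgfbr1 and Igfbp4 without any 1 library, those of Tgfb3 and Npr3 also without E13.5 replicate 2 or any E12.5 replicate, that of Igfbp5 without any E12.5 replicate, and that of Agtr2 without E12.5 replicate 1. The Tgfb3 change without 1 library ran from 0.32 to 0.71.

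Some genes with a known timing in development were called over this day, beside 2.42% of all genes that rose and 3.00% that fell. Hmga2, a chromatin protein of early embryonic cells and a target of the let-7 microRNAs, was at 9.29, 9.71 and 8.75 log2 CPM at E13.5 and at 10.39, 10.30 and 10.35 at E12.5 (-1.09 ± 0.24, adjusted p = 0.00984, limma). It was the 1 called of 14 heterochronic genes, and its call was lost without E13.5 replicate 3 (-0.84, adjusted p = 0.0751). Lin28b, which blocks let-7 maturation, was not called (-0.27 ± 0.19, adjusted p = 0.444). Of 19 imprinted growth genes Mest rose by 0.43 ± 0.09 (adjusted p = 0.00896), and Nnat, at 7.82, 7.85 and 7.60 at E13.5 and at 8.73, 8.46 and 8.57 at E12.5 (-0.83 ± 0.15, adjusted p = 0.00224), and Peg10 (-0.60 ± 0.14, adjusted p = 0.015) fell. Of 33 Hox genes 2 fell, Hoxc10 (-0.52 ± 0.12, adjusted p = 0.0134) and the weakly read Hoxd13. Trp53inp1, a stress-induced p53 target, was at 4.94, 4.86 and 5.11 at E13.5 and at 5.65, 5.82 and 5.83 at E12.5 (-0.79 ± 0.12, adjusted p = 0.000536) and was the 1 called of 12 p53 response genes. Of 18 immediate early genes and 13 heat shock and unfolded protein genes 0 were called. Hmga2, Nnat and Mest overlap genes on the other strand. The calls of Nnat and Trp53inp1 held without each library, that of Mest was lost without E13.5 replicate 3 (adjusted p = 0.0715), and those of Peg10 (-0.72 to -0.45), Hoxc10 (-0.62 to -0.42) and Hoxd13 (-1.99 to -1.51) without 3 or more of the libraries.

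Genes of nephron lineages were called in both directions. Of 8 early nephron and podocyte genes 2 fell and 0 rose, against 3.00% and 2.42% of all genes, with a median of -0.23. Synpo, an actin-associated protein of podocytes, was at 4.41, 4.54 and 3.82 log2 CPM at E13.5 and at 5.30, 5.85 and 5.83 at E12.5 (-1.41 ± 0.20, adjusted p = 0.000242, limma), and its call held without each library in turn. Of 12 nephron progenitor genes 1 rose and 1 fell, and the median was 0.74 in CD1 and 0.62 in C57BL/6 wild-type stroma. The mean level of the list was 4.97, 3.04 and 3.37 log2 CPM at E13.5 and 2.71, 3.56 and 3.14 at E12.5, so the stages overlapped and E13.5 replicate 1 was the highest. The integrin Itga8, which is also a gene of stroma and mesangium, rose (0.91 ± 0.24, adjusted p = 0.0289). Six2, the defining factor of nephron progenitors, was at 6.78, 4.06 and 4.15 at E13.5 and at 2.37, 3.17 and 3.17 at E12.5 and was not called (adjusted p = 0.0529). E13.5 replicate 1 was the highest library for Six2 and for Itga8, at 6.29, and the Itga8 call was lost without it, with a change of 0.52, and without any 1 of the E12.5 replicates. Whether nephron progenitors in that library had a part in these values was not tested. The X-linked noncoding RNA Xist was at 8.36, 10.27 and 8.96 at E13.5 and at 9.83, 9.77 and 9.83 at E12.5 and was not called (-0.61 ± 1.73, adjusted p = 0.886).

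The same stage step was measured in C57BL/6 wild-type stroma, which shares no library with the CD1 comparison. There 546 genes (3.96%) were called, 287 higher (2.08%) and 259 lower (1.88%) at E13.5. Of the 748 CD1 genes, 722 (96.5%) had the same sign in C57BL/6, against 67.4% of all genes, and 249 were called in the same direction in both, which is 33.3% of the CD1 calls and 45.6% of the C57BL/6 calls. The 1 gene called in opposite directions, named after its values were seen, was Rn45s, the ribosomal RNA precursor (-0.69 in CD1 and 0.77 in C57BL/6). The median change of the genes called lower in CD1 was -0.70 in CD1 and -0.45 in C57BL/6, and that of the genes called higher was 0.48 in CD1 and 0.32 in C57BL/6. The CD1 values of the chosen genes are raised by their choice, so the gap in size is not a result. Actg2 fell by 3.84 in CD1 and by 4.11 in C57BL/6 stroma, Myh11 by 2.69 and by 2.53, Tagln by 1.60 and by 1.57 and Acta2 by 1.12 and by 1.14, and all 8 changes were called. Ntn1 (0.90 and 0.89), Gdnf (0.89 and 1.00), Smoc2 (1.67 and 1.54) and Ccnd1 (0.74 and 0.68) likewise rose in both strains. Not every list matched in its calls. The pericyte list held 0 rises and 2 falls in CD1 and 3 rises and 0 falls in C57BL/6. The matrix glycoprotein list held 1 rise and 3 falls in CD1 and 7 rises and 0 falls in C57BL/6. Genes called in CD1 alone include Crh (-4.90 in CD1 and -3.44 in C57BL/6, adjusted p = 0.0604 there), Hmga2 (-1.09 and -0.76) and Meis1 (-0.52 and -0.29), and none of these differed between the strains by the test of the difference (adjusted p 0.93 or more, limma).

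**Figure D5:**
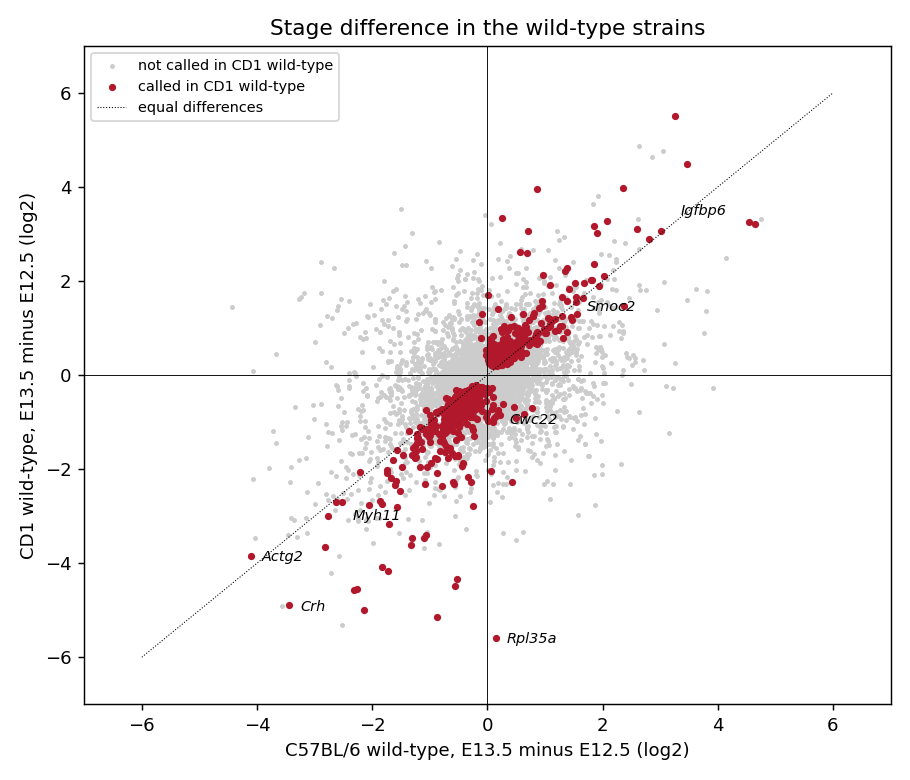
Difference between E13.5 and E12.5 (log2) of 13803 genes in CD1 wild-type stroma (vertical) and C57BL/6 wild-type stroma (horizontal), with the 748 genes called in CD1 in red and the dotted line at equal differences. Most red points lie in the lower left and upper right, and Rpl35a stands apart, with -5.58 in CD1 and 0.14 in C57BL/6.

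A test of the difference in stage step between the strains called 2 of 13803 genes (0.0145%), both lower in CD1, and 712 genes had an unadjusted p under 0.05. Rpl35a, a protein of the large ribosomal subunit, had 2, 1 and 0 reads at E13.5 and 42, 54 and 97 at E12.5 in CD1 wild-type stroma, a ratio of depth-scaled reads of 0.0147 (95% counting interval 0.00301 to 0.0437). In log2 CPM it was at 4.71, 4.98 and 4.83 at E13.5 and at 4.66, 4.86 and 4.58 at E12.5 in C57BL/6 wild-type stroma, and at 6.07, 4.55 and 4.66 at E13.5 and at 4.64, 4.25 and 4.69 at E12.5 in CD1 beta-catSO stroma. All 6 CD1 wild-type libraries lay below these 12, and the E13.5 libraries were the lowest. The difference between the strains (-5.72 ± 0.52, adjusted p = 2.07e-06, limma) was not called with voom precision weights. Cwc22, a splicing factor, was at 5.46, 5.53 and 5.50 log2 CPM at E13.5 and at 6.17, 6.24 and 6.31 at E12.5 in CD1 wild-type (-0.74 ± 0.10, adjusted p = 0.000204), and at 5.51, 5.57 and 5.77 at E13.5 and at 5.38, 5.58 and 5.32 at E12.5 in C57BL/6 wild-type. Its 3 CD1 E12.5 libraries were above the others, and 7 other loci are near-identical to part of its transcript, so its reads may be shared.

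The stage step was also compared with that of CD1 beta-catSO stroma, where 980 genes (7.10%) were called, 415 higher (3.01%) and 565 lower (4.09%) at E13.5. The beta-catSO libraries held 12.31, 21.17 and 12.57 M reads at E13.5 and 6.18, 6.43 and 6.67 M at E12.5. Depth went with stage in that group, and its part in the differences was not tested. Of the 748 CD1 wild-type genes 570 (76.2%) had the same sign there, against 57.1% of all genes, 134 were called in the same direction in both and 10 in opposite directions. The difference of the 2 stage steps was called for 183 genes (1.33%), of which 84 were higher (0.609%) and 99 lower (0.717%) in wild-type. In the contractile list 4 of 12 genes were called for this difference, all lower in wild-type. Acta2 fell by 1.12 in wild-type stroma and rose by 0.96 in beta-catSO stroma (difference -2.08 ± 0.39, adjusted p = 0.0085, limma). Tagln, Myh11 and Cnn1 fell in wild-type and were at 0.72, 0.62 and 0.89 in beta-catSO stroma, where they were not called (differences -2.31, -3.32 and -3.56, adjusted p = 0.0086, 0.0133 and 0.0318). The Actg2 difference was not called (-4.07 ± 1.17, adjusted p = 0.0867). The number of genes called for the difference was 532 without E13.5 replicate 1 of the wild-type and 64 without E13.5 replicate 3 of the wild-type. It was 88, 78 and 61 without E12.5 replicates 1, 2 and 3 of the wild-type, and 95, 89 and 79 without those of beta-catSO stroma.

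Cortical stroma and mesenchyme genes were among those whose stage step differed between the genotypes. In the cortical and progenitor list 5 of 17 genes were called for the difference, all higher in wild-type. Ntn1 rose by 0.90 in wild-type stroma and was at -0.63 in beta-catSO stroma, where it was not called (difference 1.53 ± 0.28, adjusted p = 0.0085, limma). Aldh1a2 rose by 0.62 in wild-type and fell by 0.86 in beta-catSO stroma (1.48 ± 0.23, adjusted p = 0.0028). Fibin, a secreted protein of embryonic mesenchyme, was at 4.96, 5.31 and 5.96 log2 CPM at E13.5 and at 5.07, 5.19 and 5.02 at E12.5 in wild-type, and at 3.91, 3.77 and 3.54 at E13.5 and at 5.16, 5.20 and 5.24 at E12.5 in beta-catSO stroma. The other way, Tbx18 (difference -1.15 ± 0.23, adjusted p = 0.0129) and Bmp5 (-1.49 ± 0.30, adjusted p = 0.0129) fell in wild-type and were at 0.08 and -0.28 in beta-catSO stroma, neither called there. Plch1, a phospholipase C gene, rose by 0.88 in wild-type and fell by 1.06 in beta-catSO stroma (1.94 ± 0.23, adjusted p = 0.000153). These differences, except that of Cnn1, held without each of the 12 libraries in turn. Those of Acta2, Tagln, Myh11, Cnn1, Tbx18 and Bmp5 were not called with the cell type covariates.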

How the data were processed

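RNA of 24 sorted stroma libraries, 3 in each of 8 groups, was analysed from a single deposited table of log2 CPM values, which the authors made with voom after TMM scaling. HISAT2, HTSeq, limma and the mouse build mm10 are named in the submitters' processing notes, without versions, and no source used here states the strand of counting. All values were tested with limma 3.58.1 in R 4.3.3, in 1 fit of all 24 libraries with a mean for each group, with Benjamini-Hochberg adjustment over 13803 genes. A gene had to exceed log2 CPM 0 in 3 libraries, which removed none. Differences between stage steps were tested as contrasts of the same fit. Read numbers were recovered from the values, all within 0.1 of a whole number, and intervals on them cover counting error only. The script was tested on simulated data. The genes named are the 15 largest rises and falls with libraries that do not overlap and a mean log2 CPM above 1, up to 4 of the smallest p in each of 49 lists, the 6 smallest p of each difference, and fixed markers; a few others are named where a count is small. A few genes that this choice includes are not reported here, although counts over lists include them. The libraries, lists and tests were chosen with earlier results of these data known. Annotation was GENCODE M21, and near-identical loci were found with BLAST 2.17.0 at 95% identity over 200 bases. Same-numbered replicates did not deviate together. Alternatives in scaling, filter, pseudocount, weights, libraries and covariates are given at the end.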

Additional observations from a re-analysis of the deposited data

Results flagged for a closer look

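The difference between E13.5 and E12.5 was unequal in CD1 wild-type and C57BL/6 wild-type stroma for 2 genes, by a test of the difference (limma, adjusted p under 0.05). The difference, CD1 minus C57BL/6, was -5.72 for Rpl35a and -0.93 for Cwc22 on the log2 scale, and both held without each of the 12 libraries.

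It also differed between CD1 wild-type and CD1 beta-catSO stroma for 183 genes. The difference, wild-type minus beta-catSO, was 1.94 for Plch1, 1.78 for Fibin, 1.41 for Stxbp6, 1.80 for Ngfr, 1.53 for Ntn1 and 1.48 for Aldh1a2. It was -0.93 for Rhob, -0.62 for Epb41l2, -2.08 for Acta2, -2.31 for Tagln, -3.32 for Myh11, -3.56 for Cnn1, -1.15 for Tbx18 and -1.49 for Bmp5. The call of Cnn1 was lost in 7 of the 12 fits that left out 1 library.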

How the results depend on the processing

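All 748 calls kept their direction under every alternative scaling, filter, pseudocount, weighting, choice of libraries and covariate in which the gene was tested. In several of these the direction could not turn. The filters, a robust estimate of the spread and the fits of 6 or 12 libraries leave each log2 change as it was. Without 1 library the same holds for the sign of the 727 genes that did not overlap. The count of calls was 409 when the 6 libraries were fitted alone, 188 with a 2-fold floor, 1308 at an adjusted p under 0.1, 347 with cell type covariates, and 290 to 785 without 1 library. Of the 748 genes, 309 were still called when the 6 libraries were fitted alone. The 2 genes that differed between strains became 1 with voom precision weights, 4 with array weights, 3 with median centring or a mean log2 CPM above 2, and 2 to 5 without 1 library. The 183 genes that differed between genotypes became 457 with array weights, 35 with cell type covariates, and 61 to 532 without 1 library. Array weights and covariates were chosen after seeing the data. The cause of these changes was not tested. Without 1 library the difference of Pdgfrb lay between -0.198 and 0.0458 and that of Pdgfra between -0.13 and 0.36. Those of Igf2 and H19 were 0 with quantile normalization, by which equal ranks get equal values. Same-numbered libraries correlated at -0.379, -0.106 and -0.158 in their deviations, so the numbers do not pair them, and a replicate block gave 829 calls. Depth limits genes with few reads, such as Grem1 and Rpl35a.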

Other observations

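Both lists below were put together after the values had been seen, so their counts are a description. Of 17 measured genes of megakaryocytes and platelets 8 fell and 0 rose, with a median of -2.73 in CD1 and -1.57 in C57BL/6 wild-type stroma. They summed to 55.7, 27.5 and 37.0 CPM at E13.5 and to 202, 244 and 235 CPM at E12.5, with no overlap. The fallen genes were Ppbp, Itga2b, Itgb3, Gp1bb, Vwf, Treml1, Gp5 and F2rl2, and Treml1, a receptor of platelet granules, had 15 reads at E13.5 and 183 at E12.5. The call of Gp5 was lost without E13.5 replicate 2 or 3 or any 1 of the E12.5 replicates (-5.08 to -3.06), that of F2rl2 without E13.5 replicate 3 or any 1 of the E12.5 replicates (-4.80 to -4.17), and both with voom precision weights. With the cell type covariates 7 of the 8 calls were lost, all but that of Itgb3.

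Of 19 measured Eph receptors and ephrins, which sort and position cells by contact, 6 fell and 0 rose. Epha3 was at 3.995, 4.14 and 3.28 log2 CPM at E13.5 and at 5.67, 5.75 and 5.85 at E12.5 (-1.95 ± 0.24, adjusted p = 0.000109, limma). Epha7 was at 5.88, 6.48 and 5.82 at E13.5 and at 7.25, 7.25 and 7.26 at E12.5 (-1.19 ± 0.16, adjusted p = 0.000212), and Epha4 fell by 1.01 ± 0.15 (adjusted p = 0.000274). All 3 fell in C57BL/6 wild-type stroma too, by 1.17, 0.91 and 0.75, and all 3 calls in CD1 held without each library in turn. The other fallen genes were Ephb3, Ephb4 and Efna2, whose calls were less firm. That of Efna2 was lost without any 1 library (-0.43 to -0.38), that of Ephb4 without any library but E13.5 replicate 1 (-0.25 to -0.18), that of Ephb3 without E12.5 replicate 1 (-0.68 to -0.50 over the 6 fits), and all 3 with the cell type covariates or when the 6 libraries were fitted alone.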
